A study of Nematostella vectensis with 17 samples.

Results

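In gastrulae of the sea anemone Nematostella vectensis, 133 expressed genes of 25729 gene models had mean transcript levels at least 2 times the control with each of 2 brachyury morpholinos. In these genes every library from embryos injected with either brachyury morpholino also lay above every library from embryos injected with a control morpholino. These 133 genes were chosen by their measured values. A gene was taken if it reached 1 CPM (its count scaled by the total of the library) in at least 1 control library, if its mean CPM with each brachyury morpholino was at least 2 times the control mean, and if no brachyury morpholino library overlapped a control library. Of the gene models, 21253 met the CPM condition, and the 133 genes were 0.626% of them. Their difference from the control is therefore a description of how they were selected and carries no test.

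The libraries used were 6 with the translation-blocking morpholino, 4 with the splice-blocking morpholino and 4 with the control morpholino, each made from polyA RNA of whole embryos raised at 21 °C to the gastrula stage. Embryos injected with the translation-blocking or the splice-blocking morpholino are called translation and splice morphants. Both brachyury morpholinos were given at 500 µM in 3 to 5 pl, while the dose and sequence of the control morpholino were not given in the sources used here. The labels call the replicates biological and state 6 per group, but only 4 splice and 4 control libraries are listed. All of those listed were used here. The study also holds 3 ChIP-seq samples (2 antibodies and an input), not used here.

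Brachyury is a T-box transcription factor that binds DNA and controls the transcription of other genes. In the Nematostella gastrula it is transcribed in a ring around the blastopore, the opening through which the inner layer forms, and its transcription depends on Wnt signalling, which patterns the axis from the oral end. Morpholinos are modified antisense oligomers that stay paired to an RNA without cutting it, and depending on where they pair they block the start of translation or a splicing step. It lowers the amount of protein made, so the level of the targeted transcript need not fall with a translation blocker.

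The sequences of both brachyury morpholinos are shown because the 133 genes are defined by their response to both of them. Capitals in the translation blocker mark its only CAT triplet, bases 12 to 14 from the 5′ end. CAT is the reverse complement of the letters of a start codon. The splice blocker also holds 1 CAT triplet, at bases 16 to 18, which is not in capitals. A CAT triplet therefore does not by itself set the translation blocker apart.
BraATGMO: tcgtccgagtgCATgtccgactatg
BraSpliceMO: tccctggttgtcaaccataccgtcc
Each is 25 bases long with 14 G or C bases (56%). The longest run of letters they share is 5 bases on the same strand and 4 bases against the reverse complement.

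The gene models are known here by identifiers alone. None of the identifiers (0) matched the RefSeq gene table of assembly jaNemVect1.1, so brachyury itself was not identified, the knockdown was not checked, and no gene's role, pathway or cell type markers could be described. The libraries held 12289649 to 32175949 counts with the translation morpholino, 14873801 to 16096648 with the splice morpholino and 15236154 to 80132810 with the control morpholino, so that 1 CPM stood for 12.3 to 80.1 counts. In whole embryos, more cells of a type and more RNA per cell cannot be told apart.

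Together the 133 genes took about 0.5% of all counts in the brachyury morpholino libraries and about 0.2% in the controls. Their summed level was 5619 ± 185 CPM with the translation morpholino (SD, n = 6), or 0.562 ± 0.0185% of the counts. With the splice morpholino it was 5227 ± 117 CPM, or 0.523 ± 0.0117% (SD, n = 4), and with the control morpholino 1949 ± 502 CPM, or 0.195 ± 0.0502% (SD, n = 4). The ratios to the control were 2.88 in translation morphants and 2.68 in splice morphants, and the splice sum was 0.930 times the translation sum.

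By library, the sums were 5871, 5534, 5742, 5716, 5446 and 5405 CPM in translation libraries 1 to 6, and 5147, 5146, 5394 and 5220 CPM in splice libraries 1 to 4. The control libraries had 1521, 1527, 2505 and 2243 CPM. The libraries of each brachyury morpholino lay close together, and the controls fell into a lower pair, libraries 1 and 2, and a higher pair, libraries 3 and 4.

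**Figure D1:**
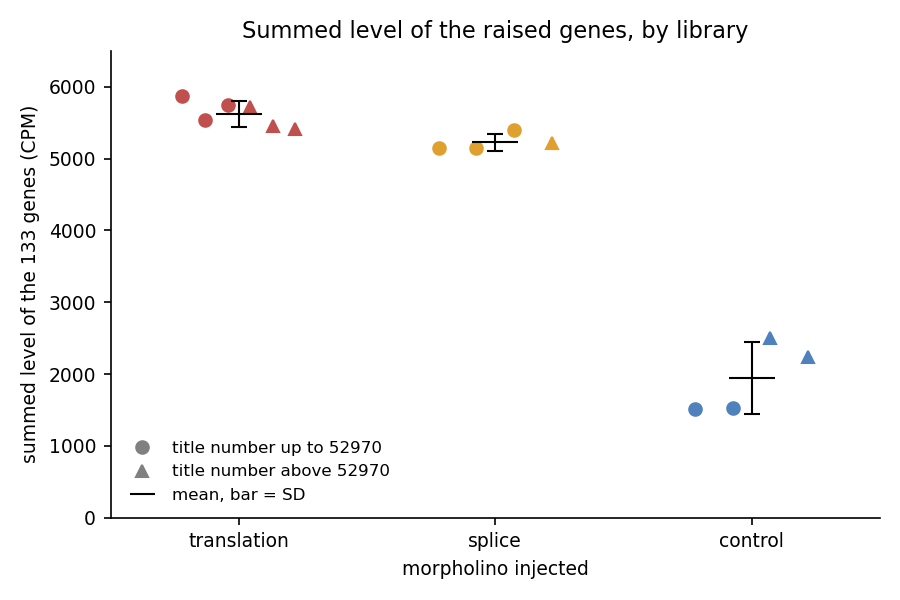
Summed level of the 133 genes (CPM) in each library, with a point for each library (circles for title numbers up to 52970, triangles above), the group mean and a bar for the SD. The groups from left to right are the translation, splice and control morpholinos. The translation libraries lie between 5405 and 5871 CPM and the splice libraries between 5146 and 5394 CPM, while the controls lie between 1521 and 2505 CPM.

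Most of the 133 genes were transcribed at low levels in control embryos. Their control means ran from 0.600 to 188 CPM with quartiles of 1.71, 4.88 and 14.02 CPM, against a median of 13.6 CPM over the 21253 expressed genes. All control libraries reached 1 CPM in 107 of them, at least 1 control lay under 1 CPM in 26, and the control mean was under 1 CPM in 6. None had a control library at 0, and the lowest control count was 1. A few abundant genes carried much of the sum: the 10 with the highest control levels made up 46.1% of the control total.

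The fold over the control mean ran from 2.02 to 8.91 with the translation morpholino (quartiles 2.40, 2.92 and 3.69). With the splice morpholino it ran from 2.01 to 12.9 (quartiles 2.27, 2.65 and 3.14). On the log2 scale the medians were 1.55 in translation morphants and 1.41 in splice morphants, against -0.06 in translation morphants and -0.09 in splice morphants over all expressed genes. The fold was larger with the translation morpholino in 85 genes and larger with the splice morpholino in 48. Both folds reached 2.5 in 72 genes, 3 in 35, 4 in 7 and 5 in 1.

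By control level, which is also the denominator of the folds and part of the selection, the median folds did not follow one order. Among the 36 genes with a control mean under 2 CPM the median folds were 3.01 in translation morphants and 2.84 in splice morphants, and among the 61 genes between 2 and 10 CPM they were 3.58 in translation morphants and 2.76 in splice morphants. Among the 28 genes between 10 and 50 CPM they were 2.61 in translation morphants and 2.28 in splice morphants, and among the 8 genes above 50 CPM they were 2.69 in translation morphants and 2.55 in splice morphants. Both folds reached 3 in 12 of 36, 18 of 61, 3 of 28 and 2 of 8 genes in these classes. The 8 most abundant genes nevertheless held 39.2% of the summed level with the translation morpholino, 40.7% with the splice morpholino and 41.1% with the control.

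In edgeR's quasi-likelihood fit over 22109 genes, all 133 were tested. At an adjusted p under 0.05, 133 were higher with the translation morpholino than with the control (highest adjusted p 0.0227), where 9.96% of all genes tested were called higher. With the splice morpholino 132 were higher, where 5.75% of all genes were. The remaining gene, NVE4616, had an adjusted p of 0.0592 by edgeR. In the authors' deposited table, which compares the translation morpholino with the control, all 133 had an adjusted p under 0.05 (at most 0.0128) and a log2 fold change between 1.08 and 3.20 with a median of 1.63. These counts follow from the way the genes were chosen. Without the condition on fold, every brachyury morpholino library lay above every control in 568 of the 21253 expressed genes, or 2.67%.

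**Figure D2:**
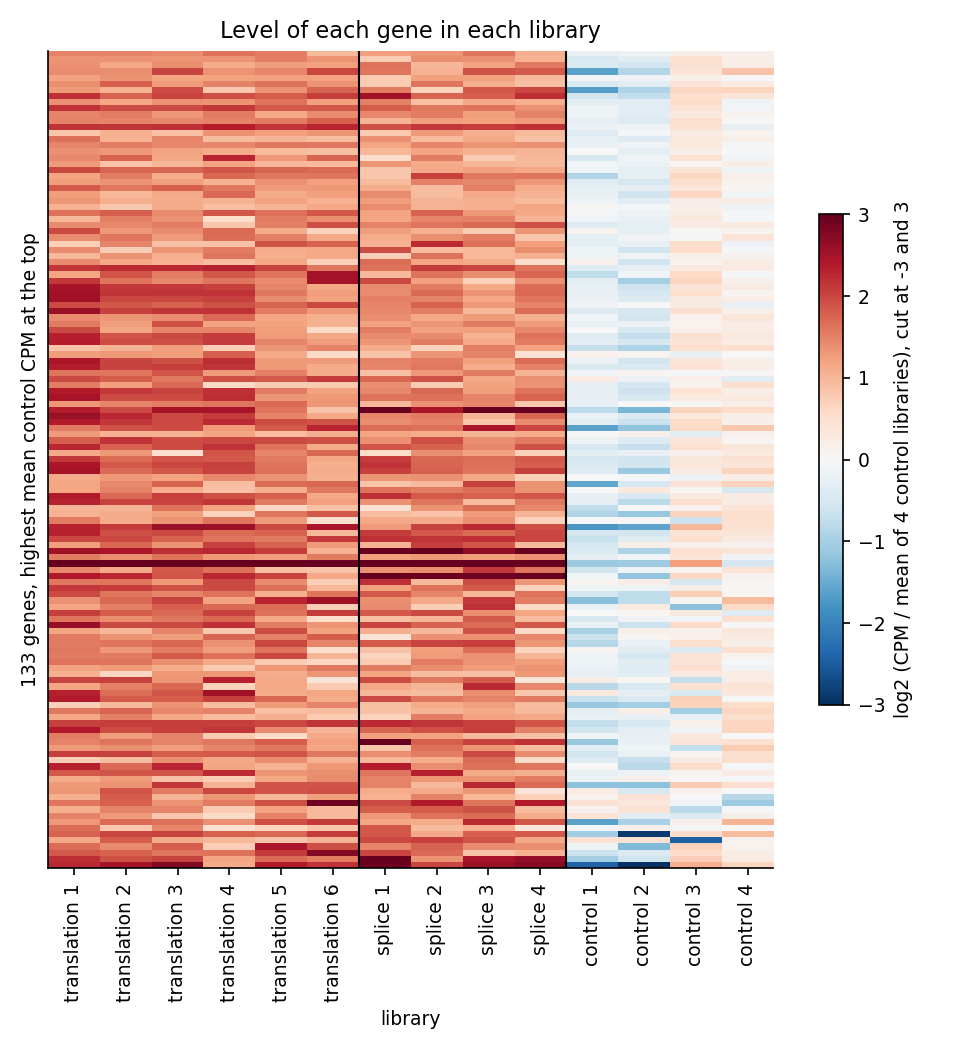
Level of each of the 133 genes (rows) in each library (columns), as log2 of CPM over the control mean of that gene; columns run from translation through splice to control libraries, and rows from the highest to the lowest control mean. Control libraries 3 and 4 both lie above control libraries 1 and 2 in 100 of the rows.

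The most abundant of the 133 genes in control embryos was NVE2277. Its level ran from 368 to 579 CPM with the translation morpholino (median 523 CPM), was 443, 467, 575 and 397 CPM in the splice libraries, and was 161, 168, 212 and 210 CPM in the controls. The lowest brachyury morpholino library was well above the highest control. The means were 506 ± 72.4 CPM with the translation morpholino (SD, n = 6), 470 ± 75.7 CPM with the splice morpholino (SD, n = 4) and 188 ± 27.3 CPM with the control (SD, n = 4), for folds of 2.70 in translation morphants and 2.508 in splice morphants. NVE17841, the second in abundance, ran from 362 to 420 CPM with the translation morpholino (median 368 CPM), was 245, 380, 370 and 299 CPM in the splice libraries, and 103, 115, 196 and 162 CPM in the controls. Its folds were 2.61 in translation morphants and 2.25 in splice morphants, and splice libraries 1 and 4 lay below every translation library.

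NVE16580 had the largest folds with both morpholinos. It ran from 23.8 to 29.1 CPM with the translation morpholino (median 25.2 CPM), was 32.5, 36.4, 35.4 and 44.5 CPM in the splice libraries, and 1.36, 1.38, 6.75 and 2.04 CPM in the controls. All splice libraries lay above all translation libraries, and control library 3 stood far above the other 3 controls. The folds over the mean of 2.88 ± 2.60 CPM in the controls (SD, n = 4) were 8.91 in translation morphants and 12.9 in splice morphants. Without control library 3 they were 16.1 in translation morphants and 23.3 in splice morphants, so this library decides their size. The log2 difference, splice minus translation, was 0.57 ± 0.31 (SE, adjusted p = 0.25 by edgeR). Without control library 3 it stayed at 0.57 but passed the threshold (adjusted p = 0.016 by edgeR). The groups share the estimate of spread in this fit, so a control library can change the p-value without changing this difference.

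NVE24721 was next by the smaller of its folds, at a low level in the controls. It ran from 1.30 to 4.15 CPM with the translation morpholino (median 3.01 CPM), was 4.60, 2.42, 3.62 and 3.97 CPM in the splice libraries, and 0.112, 0.0656, 1.28 and 0.941 CPM in the controls. The controls rested on 1 to 23 counts, and control library 3 lay just under the lowest translation library. Its folds were 4.88 in translation morphants and 6.08 in splice morphants over all controls, and 7.85 in translation morphants and 9.79 in splice morphants without control library 3.

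Among genes with a control mean of at least 5 CPM, NVE10570 and NVE7568 had the widest gap between the lowest brachyury morpholino library and the highest control. NVE10570 ran from 201 to 233 CPM with the translation morpholino (median 207 CPM), was 174, 199, 193 and 207 CPM in the splice libraries, and 40.7, 40.8, 62.8 and 38.2 CPM in the controls. Its lowest brachyury morpholino library was 2.77 times its highest control, and its folds were 4.65 in translation morphants and 4.23 in splice morphants. NVE7568 ran from 34.2 to 55.8 CPM with the translation morpholino (median 50.8 CPM), was 35.0, 47.9, 45.3 and 34.1 CPM in the splice libraries, and 8.71, 9.45, 13.6 and 13.3 CPM in the controls. Its gap was 2.52 times and its folds were 4.30 in translation morphants and 3.61 in splice morphants. Over the 133 genes this gap had a median of 1.39 and ran from 1.01 to 3.53. It reached 1.5 in 48 genes and was under 1.1 in 17.

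**Figure D3:**
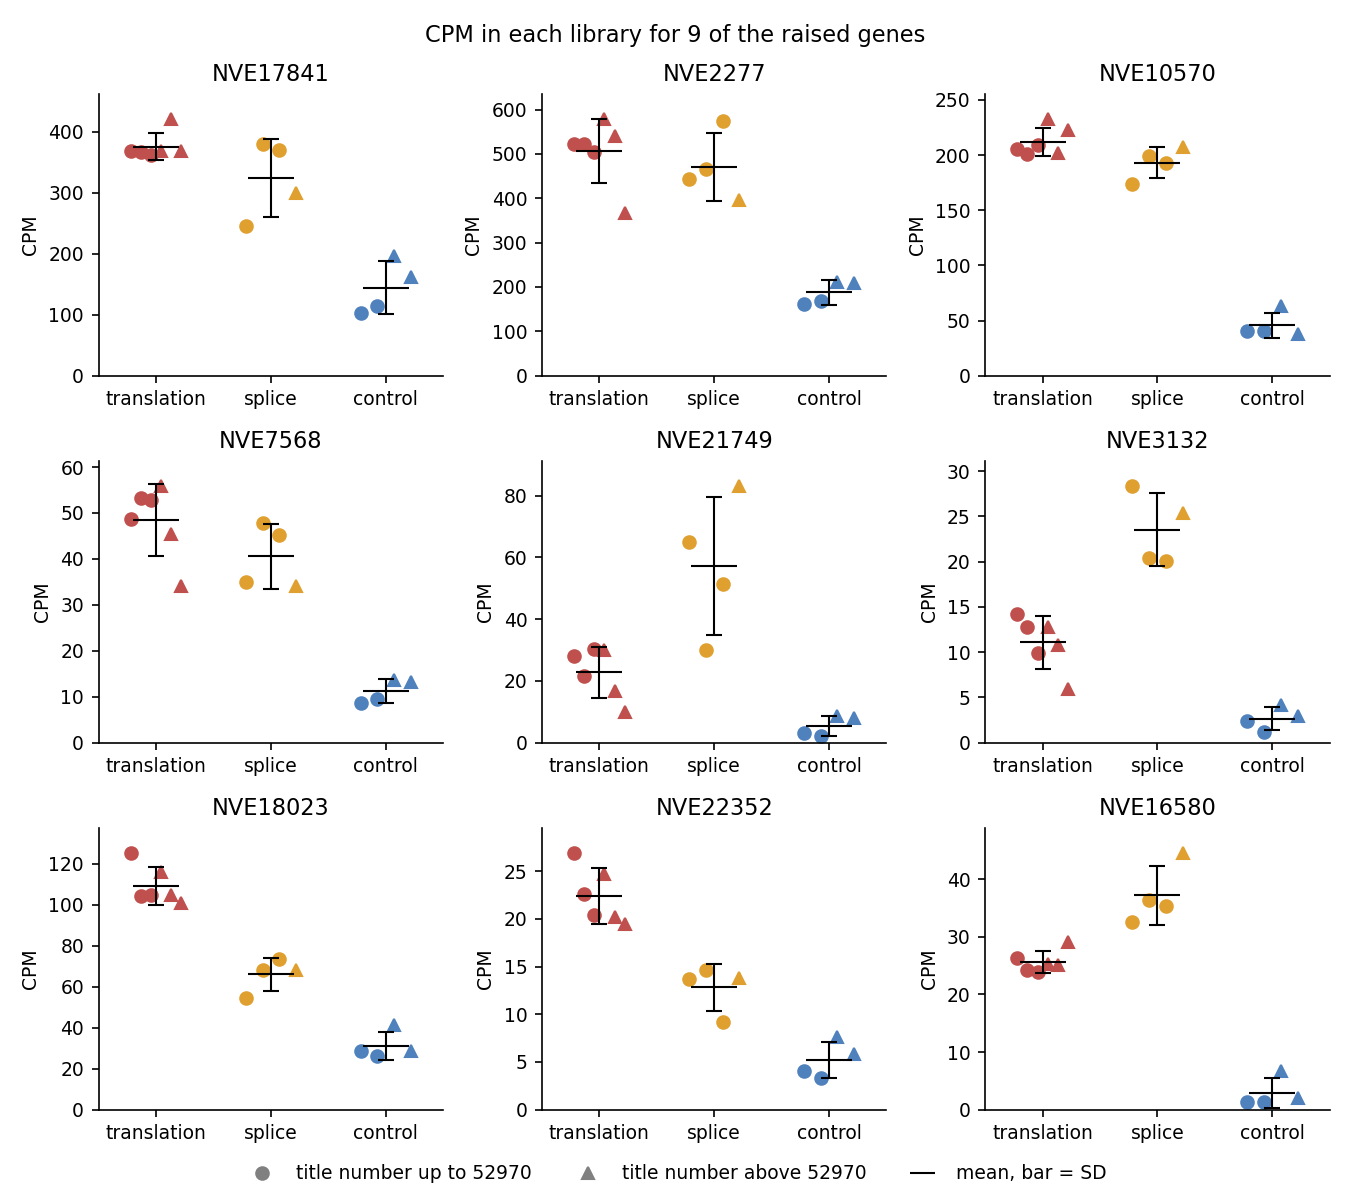
Level (CPM, axes from 0) of 9 of the named genes in each library, with the translation, splice and control groups from left to right, circles for title numbers up to 52970, triangles for those above, and bars for the mean and SD. No brachyury morpholino library overlaps a control in any panel, and the splice libraries of NVE3132 lie above, and those of NVE18023 and NVE22352 below, the translation libraries.

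Whether the 2 brachyury morpholinos gave the same level was a comparison that the choice of genes did not set directly. At an adjusted p under 0.05 in the edgeR fit, 6 of the 133 genes (4.51%) differed between the splice and the translation morpholino, while 12.8% of all genes tested did. Of these, 3 (2.26%) were higher with the splice morpholino, where 6.49% of all genes were, and 3 (2.26%) were lower, where 6.29% were. The 3 higher ones differed by more than 2-fold, and none of the 3 lower ones did. At an unadjusted p under 0.05 there were 18 of the 133, against 6355 of the 22109 genes tested. Since both folds had to reach 2, a gene that stayed below that with either morpholino could not be among the 133, and nothing is read from their lower share.

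The log2 difference, splice minus translation, had a median of -0.07 over the 133 genes (0.01 over all genes tested), quartiles of -0.30 and 0.11 and a range of -0.79 to 1.39. It was negative in 82 genes and positive in 51. Of the 127 genes not called, 47 had a 95% interval within 1.5-fold in both directions and 80 had an interval that reached beyond it. Every splice library lay above every translation library in 3 genes and below in 5, together 6.02% of the 133, against 10.3% of the expressed genes for either direction.

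Higher with the splice morpholino were NVE3132 and NVE21749. NVE3132 had 28.3, 20.4, 20.1 and 25.4 CPM in the splice libraries, against 5.94 to 14.2 CPM (median 11.8 CPM) with the translation morpholino, and the groups did not overlap. The log2 difference was 1.14 ± 0.26 (SE, adjusted p = 0.0092 by edgeR, 95% interval 0.63 to 1.64), and the controls had 2.43, 1.18, 4.13 and 2.93 CPM. The folds over the control were 8.82 with the splice morpholino and 4.15 with the translation morpholino.

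NVE21749 had 64.9, 30.1, 51.3 and 83.1 CPM in the splice libraries, against 9.88 to 30.4 CPM (median 24.9 CPM) with the translation morpholino, and the lowest splice library lay just under the highest translation library. The log2 difference was 1.39 ± 0.38 (SE, adjusted p = 0.024 by edgeR), and the call was lost without splice library 1 (adjusted p = 0.064) or splice library 4 (adjusted p = 0.0998). The folds over the controls, which had 3.16, 2.10, 8.65 and 7.95 CPM, were 10.5 with the splice morpholino and 4.18 with the translation morpholino. The other gene in this direction, NVE23479, had means of 28.0 CPM with the splice morpholino and 14.4 CPM with the translation morpholino, and a log2 difference of 1.02 ± 0.28 (SE, adjusted p = 0.025 by edgeR).

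Lower with the splice morpholino were NVE18023 and NVE22352. NVE18023 had 54.4, 68.1, 73.3 and 67.9 CPM in the splice libraries, against 101 to 125 CPM (median 105 CPM) with the translation morpholino, and the groups did not overlap. The log2 difference was -0.70 ± 0.14 (SE, adjusted p = 0.0057 by edgeR, 95% interval -0.98 to -0.41), and the controls had 28.5, 25.9, 41.2 and 28.5 CPM. Its folds over the control were 2.12 with the splice morpholino and 3.52 with the translation morpholino.

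NVE22352 had 13.7, 14.7, 9.21 and 13.8 CPM in the splice libraries, against 19.5 to 26.9 CPM (median 21.5 CPM) with the translation morpholino. The groups did not overlap, and the log2 difference was -0.76 ± 0.21 (SE, adjusted p = 0.029 by edgeR). The call was lost when translation library 1, translation library 4, splice library 1 or splice library 3 was left out (adjusted p of 0.052, 0.053, 0.062 and 0.085). The other gene in this direction, NVE9328, had means of 2.39 CPM with the splice morpholino and 4.01 CPM with the translation morpholino, and a log2 difference of -0.73 ± 0.21 (SE, adjusted p = 0.031 by edgeR).

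In NVE22401 and NVE25393 the difference between the morpholinos was most closely bounded near 0. NVE22401 had 56.3, 48.3, 49.9 and 45.5 CPM in the splice libraries, against 48.9 to 59.0 CPM (median 51.2 CPM) with the translation morpholino and 21.2, 18.8, 26.9 and 27.9 CPM in the controls. The log2 difference was -0.04 ± 0.12 (SE, adjusted p = 0.87 by edgeR), with a 95% interval of -0.28 to 0.20. NVE25393 had 68.2, 77.5, 71.7 and 68.8 CPM in the splice libraries, against 63.8 to 88.9 CPM (median 76.1 CPM) with the translation morpholino and 34.5, 28.2, 39.2 and 34.7 CPM in the controls. Its log2 difference was -0.05 ± 0.12 (SE), with a 95% interval of -0.28 to 0.18. The splice and translation libraries of both genes overlapped.

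**Figure D4:**
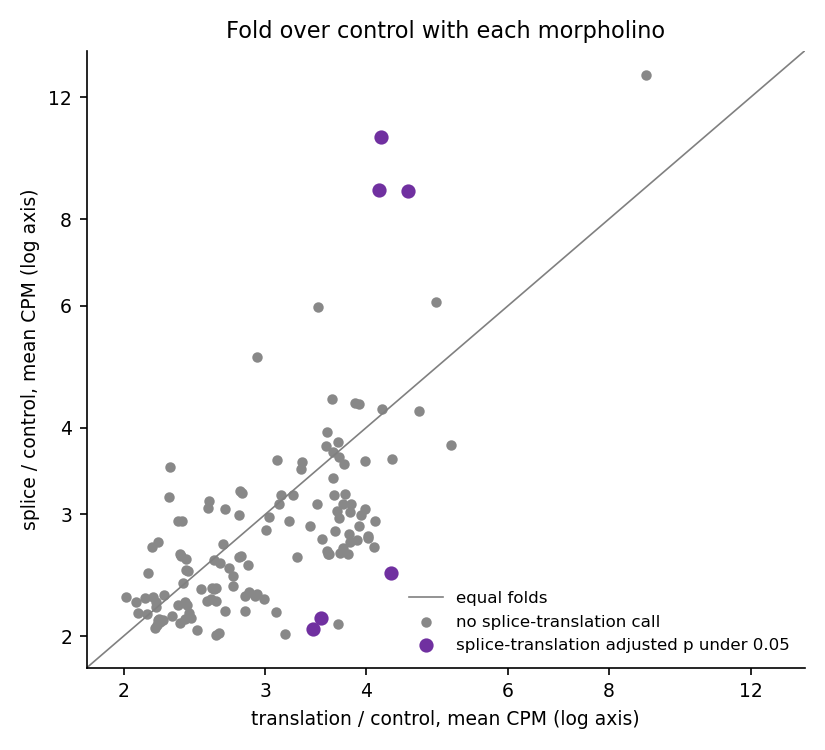
Fold over the control mean with the translation morpholino (horizontal, log axis) and with the splice morpholino (vertical, log axis) for each of the 133 genes, with the 6 genes that differed between the morpholinos in purple and a line of equal folds. Both axes share the control libraries, and the genes lie at 2-fold or more on both by the way they were chosen.

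Close to the threshold, NVE24789 and NVE25657 were just inside, each with a splice fold of 2.01. NVE24789 ran from 2.72 to 4.90 CPM with the translation morpholino (median 4.05 CPM), was 2.67, 2.96, 3.24 and 2.88 CPM in the splice libraries, and 1.19, 1.64, 0.725 and 2.30 CPM in the controls. NVE25657 ran from 72.4 to 158 CPM with the translation morpholino (median 97.9 CPM), was 46.6, 94.7, 55.3 and 64.1 CPM in the splice libraries, and 23.4, 30.3, 45.4 and 30.4 CPM in the controls. The highest control of both genes came close to the lowest splice library. The log2 difference of NVE25657, splice minus translation, was -0.63 ± 0.25 (SE, adjusted p = 0.11 by edgeR), and it passed the threshold without splice library 2 (adjusted p = 0.048 by edgeR). Just outside were NVE2944, with folds of 2.21 in translation morphants and 1.998 in splice morphants, and NVE20002, with folds of 1.99 in translation morphants and 3.04 in splice morphants. A further 73 genes met the conditions on level and fold but had a brachyury morpholino library that overlapped a control.

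Within groups the 133 genes varied most among the control libraries. Their median coefficient of variation was 23.0% in translation morphants and 19.3% in splice morphants, against 18.7% in translation morphants and 19.4% in splice morphants over all expressed genes. In the controls it was 29.96%, against 15.2% over all expressed genes, and it passed 50% in 17 genes, against 0 with the translation and 1 with the splice morpholino. The comparison was not matched for level: the median control mean was 4.88 CPM in the 133 genes and 13.6 CPM in the expressed genes. The highest control was library 3 in 77 genes, library 4 in 40, library 2 in 10 and library 1 in 6. The lowest brachyury morpholino library was a splice library in 76 genes and a translation library in 57, most often translation library 6 (28 genes).

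Among the translation libraries NVE1207 and NVE25664 had the largest ratios of the highest to the lowest library, at 3.86 and 3.31. NVE1207 ran from 2.14 to 8.27 CPM with the translation morpholino (median 5.41 CPM), was 6.34, 4.91, 5.91 and 2.11 CPM in the splice libraries, and 1.93, 1.71, 1.00 and 1.93 CPM in the controls. NVE25664 ran from 1.37 to 4.53 CPM with the translation morpholino (median 2.79 CPM), was 2.30, 2.82, 2.22 and 2.18 CPM in the splice libraries, and 0.749, 0.328, 1.34 and 0.889 CPM in the controls. The lowest translation library of both genes was close to the highest control.

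One group of the 133 genes moved up and down together from library to library within the treatment groups. The likeness was measured as the correlation r of log2(CPM + 0.5), taken as deviations from the group mean, over all 14 libraries. Around NVE2038, chosen after its values were seen because it had the most such partners, 26 other members (19.7%) had an r above 0.8. Over all other expressed genes 41 did (0.193%), so 63.4% of them were members. The libraries share depth and composition across genes, and the genes were chosen on these libraries, so these values are a description. Leaving out each library in turn gave 22 to 27 members of 38 to 57 expressed genes. Without the control libraries 20 members of 198 genes passed, and among the translation libraries alone 36 of 1613.

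NVE2038 itself had 36.3, 26.7, 28.8, 31.0, 17.7 and 16.3 CPM in translation libraries 1 to 6, 19.3, 19.5, 15.1 and 22.4 CPM in the splice libraries, and 5.57, 4.40, 10.2 and 8.94 CPM in the controls. Translation libraries 5 and 6 were low, near the splice libraries, and control libraries 3 and 4 were high. This group of 27 was chosen for its likeness to NVE2038, so a similar order of libraries within each treatment group was set in advance. Its median gene was at 5.19, 3.94, 3.95, 4.30, 2.96 and 2.23 times the control mean in translation libraries 1 to 6. The same median was 2.84, 3.06, 2.40 and 3.21 times in the splice libraries, and 0.836, 0.687, 1.34 and 1.16 times in the controls. The group's median folds were 3.80 in translation morphants and 2.88 in splice morphants, against 2.76 in translation morphants and 2.59 in splice morphants for the other members. Of the 27 genes, 3 were called higher with the splice than with the translation morpholino and 1 was called lower. Over all genes tested, 6.49% were called higher and 6.29% lower. Nothing is read from these few calls.

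For this comparison the libraries were cut by the numbers in the sample titles into a set up to 52970 and a set above it. The cut was chosen here, and no label marks it. The sets are called earlier and later by the order of the numbers, not by a known time. The labels do not say what the numbers stand for. The earlier set held 3 translation, 3 splice and 2 control libraries, and the later set held 3 translation, 1 splice and 2 control libraries. Both later controls lay above both earlier controls in 100 of the 133 genes (75.2%), which was the case in 18.1% of the expressed genes, and below them in 6, against 34.1% of the expressed genes. The median ratio of later to earlier controls was 1.48 over the 133 genes and 0.942 over the expressed genes. In the brachyury morpholino libraries the same ratio was 0.946 with the translation and 0.954 with the splice morpholino, against 0.974 in translation morphants and 0.896 in splice morphants over the expressed genes. The selection used these controls, and the part of the title number in the folds was not tested.

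The size of the folds differed between the sets, while folds above 1 in each set are fixed by the condition that no libraries overlap. The median fold within the earlier set was 3.60 in translation morphants and 3.30 in splice morphants, and within the later set it was 2.37 in translation morphants and 2.18 in splice morphants. Both folds reached 2 in 131 genes within the earlier set and in 70 within the later set. Among the 140 expressed genes at 0.5 times the control or less with both morpholinos, without overlap, the later controls lay below the earlier ones in 86 and above in 4, with a median ratio of 0.750. Over all expressed genes the later controls lay below the earlier ones in 34.1% and above in 18.1%, with a median ratio of 0.942. For most genes raised with both morpholinos, and for most of these 140, the later controls were nearer to the brachyury morpholino libraries. Both groups of genes were chosen on these same controls, so this is a description and carries no test.

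NVE25858, named after its values were seen, shows the split in an abundant gene. It had 303, 298, 458, 290, 312 and 456 CPM in translation libraries 1 to 6, 344, 233, 423 and 407 CPM in the splice libraries, and 37.4, 61.2, 151 and 203 CPM in the controls. The later controls were between the earlier controls and the brachyury morpholino libraries. Its folds were 3.12 in translation morphants and 3.11 in splice morphants over all controls, and 1.99 with each morpholino over the later controls. NVE16580, with the largest folds of all, had folds of 5.84 in translation morphants and 8.46 in splice morphants over the later controls, and NVE24721 had 2.63 in translation morphants and 3.28 in splice morphants.

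**Figure D5:**
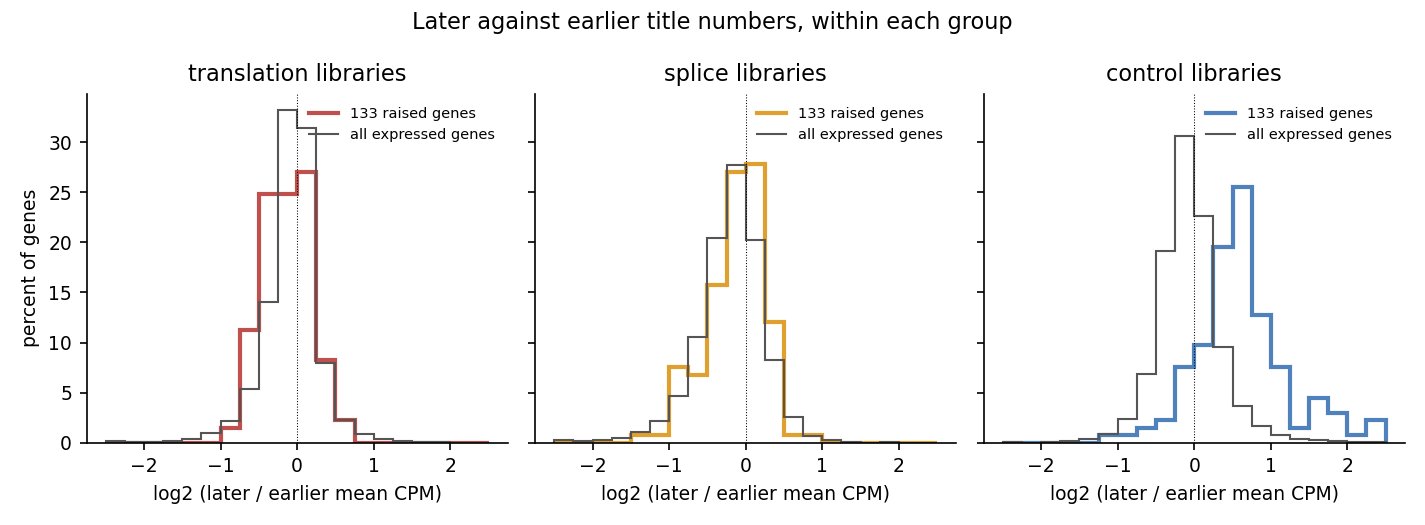
Percent of genes (vertical) by the log2 ratio of the later to the earlier mean CPM (horizontal) within the translation, splice and control groups from left to right, for the 133 genes (coloured) and all expressed genes (grey). In the control panel the 133 genes lie to the right, at a median ratio of 1.48 against 0.942 over the expressed genes, while in the translation panel the medians are 0.946 and 0.974.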

How the data were processed

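The authors deposited raw counts per gene model for 14 RNA-seq libraries. Tools listed in the submitters' processing notes, with no roles, are STAR 2.5.3a, cutadapt 1.8.1, Subread 1.6.2 with featureCounts, BWA and DESeq2 1.6.0. No source used here gives the annotation or strand setting for counting. Near-identical copies, overlapping genes and antisense genes were not told apart. No counts (0) fell on the 92 spike-in rows, which were dropped. A normalized score for each library, deposited by the authors, and their fold (ratio) column were not used for results. Their deposited log2 fold change and p-value columns compare the translation morpholino with the control. No column of per-sample values lacked a sample (0 columns). Peak lists were not used, since gene positions on their build were not used here.

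CPM is the count divided by the library's total over gene models. The 133 genes, the comparisons and the rules were chosen with earlier results of these data known. Genes were tested with edgeR 4.0.16 in R 4.3.3 (filterByExpr, TMM scaling, quasi-likelihood test, 11 residual degrees of freedom, two-sided), with Benjamini-Hochberg adjustment over 22109 genes and calls at an adjusted p under 0.05. Intervals are the log2 difference ± 1.96 SE, which is narrower than a 95% interval from the quasi-likelihood test. Alternatives were other scalings, DESeq2 1.42.0, limma-voom (limma 3.58.1), other filters and thresholds, each library left out, and each set of title numbers alone. Tests were checked on simulated counts. Named genes are at most 2 for each pattern: highest control level, largest smaller fold, nearest to the threshold on either side, smallest adjusted p in each direction between the morpholinos, best bounded near 0, widest gap to the controls and widest spread within the translation group. Listed pathway and marker genes could not be matched by name. Replicate numbers follow accession order and pair no samples.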

Additional observations from a re-analysis of the deposited data

Results flagged for a closer look

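Of 54 sets of 4 to 6 libraries examined, 6 held a library far from the others. Chance would give about 1 in 20 independent sets, or 2.7. These sets share libraries, and the named genes among them were chosen by their values, so nothing is read from the count. For each of the 6 the gap to the nearest library is given as a share of the group's range. For total counts on the log10 scale, translation library 6 stood apart (0.639), as did control library 1 (0.863), the deepest library. For NVE17841 translation library 5 stood apart (0.891), and for NVE2277 translation library 6 did (0.652). Control library 3 stood apart for NVE10570 (0.897) and for NVE16580 (0.874). Without control library 3 the folds of NVE16580 were 16.1 with the translation and 23.3 with the splice morpholino, against 8.91 in translation morphants and 12.9 in splice morphants with it. Those of NVE10570 were 5.32 in translation morphants and 4.84 in splice morphants without it, against 4.65 in translation morphants and 4.23 in splice morphants with it.

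The effects of the 2 brachyury morpholinos differed in 6 of the 133 genes by edgeR's test of splice minus translation. Among the named ones the log2 difference was 1.14 for NVE3132, 1.39 for NVE21749, -0.70 for NVE18023 and -0.76 for NVE22352. No explanation for these differences was tested.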

How the results depend on the processing

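The number of genes that met the rule was 394 with title numbers up to 52970 alone (122 of them among the 133) and 80 above 52970 (69 among the 133), 334 at 1.5-fold, 35 at 3-fold and 206 with overlap allowed. It was 153 with TMM scaling (130 among the 133), 157 with DESeq2 size factors, and 123 to 198 when a library was left out, with 192 and 198 without control library 3 or 4. Up to 52970 alone, the summed level was 3.75 times the control with the translation and 3.43 times with the splice morpholino, and above 52970 alone 2.33 times in translation morphants and 2.20 times in splice morphants. When a library was left out, the ratio was 2.69 to 3.19 with the translation and 2.499 to 2.96 with the splice morpholino, and the median log2 fold was 1.43 to 1.72 in translation morphants and 1.30 to 1.55 in splice morphants. Above 52970 alone, edgeR called 9 of the 133 against the control with the translation morpholino (127 at an unadjusted p under 0.05) and 0 with the splice morpholino (108). Up to 52970 alone it called 133 with the translation and 132 with the splice morpholino, and with the set of title numbers as a term, added after seeing the data, 133 with each. With a library left out, 130 to 133 were called in translation morphants and 118 to 133 in splice morphants. The set above 52970 has 3 translation, 1 splice and 2 control libraries. The share of all genes called in each of these fits is not given here, so the counts are not read as a result about the 133.

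The count of genes that differed between the splice and translation morpholinos was 2 to 10 when a library was left out, with 1 to 5 higher and 1 to 5 lower. Leaving out splice library 1 gave 2 (1 higher, 1 lower), leaving out splice library 2 gave 10 (5 and 5), leaving out splice library 4 gave 3 (1 and 2), and leaving out translation library 4 gave 4 (3 and 1). It was 2 (1 and 1) at an adjusted p under 0.01, 8 at 0.1, and 8 (5 higher, 3 lower) in a fit of these groups alone. DESeq2 called 8 and limma-voom 6. Up to 52970 alone it was 11 (1 and 10), and above 52970 it was 0 by edgeR (0 higher, 0 lower, 10 at an unadjusted p under 0.05), where no other tool was run and where the splice group has 1 library, assumed to vary like the others. With the set of title numbers as a term it was 7. These counts too are given without the share of all genes called in the same fit, and nothing is read from their changes. For the named genes the tally covers library size only, DESeq2 and each library left out. It leaves out limma-voom, other filters and thresholds, the fit of these groups alone and the sets of title numbers. Of the 256 values tallied, 246 kept their direction and side of the threshold, 6 lost and 2 gained a call, and 2 changed sign. Both were of NVE1207, which was not called with all libraries or in either case: its log2 difference, splice minus translation, was -0.10 with all libraries, 0.09 without translation library 4 and 0.13 without splice library 4, with a range of -0.27 to 0.13 when a library was left out. Over all genes called for splice minus control, 52.1% were higher with TMM and 37.8% with library size only. Causes were not tested.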

Other observations

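Some of the 133 genes had consecutive identifier numbers. There were 9 such pairs among 16 genes, including 2 runs of 3. Of the 112 genes whose next number was an expressed gene, 8.04% were followed by another of the 133, which make up 0.626% of the expressed genes. In 8 of the 9 pairs the folds of the 2 genes were within 1.5 times of each other with both morpholinos. The share among other pairs of the 133 was not computed, and pairs in the runs of 3 share a gene. Nothing is read from this count. Among the 140 genes at 0.5 times the control or less there were 4 pairs (3.48% of 115, against 0.659% of the expressed genes). The run NVE14396, NVE14397 and NVE14398 had means of 11.9, 6.27 and 4.70 CPM with the translation morpholino, 14.4, 7.26 and 3.87 CPM with the splice morpholino and 3.28, 2.02 and 1.28 CPM with the control. No source used here says whether the numbers follow genome order, and near copies or split gene models were not told apart.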
